A study of Homo sapiens with 26 samples.

Results

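The 8 long noncoding RNAs described here, MALAT1, NEAT1, KCNQ1OT1, HOTAIR, AIRN, TUG1, MEG3 and PVT1, are transcripts known for acting or staying in the nucleus, and they were chosen by symbol. Of these, 7 had a row among the 25745 genes of the expression matrix. MEG3 is not analysed here. All 7 passed the filter on low values, AIRN by its outside libraries alone and only with the help of controls. The study used APEX-seq, in which the peroxidase APEX2 tags nearby RNA with biotin so that it can be captured on streptavidin beads and sequenced. Its 26 libraries came from HEK293T cells, a human embryonic kidney line, stably expressing APEX2 fused to 1 of 4 plasma membrane targeting sequences. Lyn11 and Lck place the enzyme on the inner face of the membrane, and CD28 and PDGFR place it on the outer face. Lyn11 had 4 labeled and 4 control libraries, and Lck, CD28 and PDGFR had 3 of each. A nuclear RNA read in such a library, labeled or control, gives a measure of nuclear background.

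All 8 groups share the cell line and stably express an APEX2 fusion, which differs between the 4 constructs, and the labels list the same steps for every library: biotin-phenol for 30 min, then 1 mM hydrogen peroxide for 1 min, total RNA extraction and streptavidin enrichment. Which step was left out for the controls, whether each line is 1 clone, and whether libraries came from separate cultures are not given in the sources used here. The p-values therefore measure the spread between these libraries, which may be technical. The libraries are bulk RNA, in which fewer cells holding an RNA and less RNA per cell cannot be told apart. No nuclear or cytosolic fraction was measured, so the nuclear location of the 7 RNAs is background knowledge.

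MALAT1 gathers at nuclear speckles, where splicing factors are stored, and NEAT1 is the scaffold on which paraspeckles are built. KCNQ1OT1 is a long antisense transcript of an imprinted locus that silences neighbouring genes in cis. AIRN lies antisense to the receptor gene IGF2R, and its annotated span here is 4374 bases. HOTAIR lies in the HOXC cluster and is known for its link to Polycomb proteins. TUG1 is found both in the nucleus and in the cytoplasm, and PVT1 is the long neighbour of MYC. MALAT1 and the long form of NEAT1 carry no normal poly(A) tail. Their ends fold into a triple helix of U-rich stretches and a genomically encoded A-rich tract, formed when RNase P cuts off a small tRNA-like RNA downstream.

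The ends of these nuclear scaffold RNAs are shown because they are the feature that sets the pair apart from most transcripts. Both windows are 100 bases long and come from the GENCODE 29 transcripts, with positions on hg38, plus strand. The capitals mark the 3 strings of at least 8 bases that both windows hold, written as DNA: TTTCTTTT, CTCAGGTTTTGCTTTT, which joins a stem to a U-rich stretch, and the A-rich AAAAAGCAAAA. They do not overlap, and only the transcript strand was searched. The MALAT1 window lies at chr11:65506017-65506116 and the NEAT1 window at chr11:65445441-65445540.
MALAT1-202: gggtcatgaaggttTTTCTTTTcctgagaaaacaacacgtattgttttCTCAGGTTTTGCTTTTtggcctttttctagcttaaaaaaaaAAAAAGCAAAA
NEAT1-202: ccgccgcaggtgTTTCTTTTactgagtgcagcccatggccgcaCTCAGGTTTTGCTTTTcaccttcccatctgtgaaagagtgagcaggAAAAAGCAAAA
TTTCTTTT starts at base 15 of the MALAT1 window and base 13 of the NEAT1 window, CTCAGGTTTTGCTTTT at bases 49 and 44, and AAAAAGCAAAA at base 90 of both. Among 29546 annotated long noncoding transcripts of at least 100 bases, 1.34% hold TTTCTTTT in their last 100 bases, 0.00338% hold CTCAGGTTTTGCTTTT and 0.0474% hold AAAAAGCAAAA. NEAT1-202 was the 1 transcript with all 3 strings in its last 100 bases, which was fixed in advance because the strings were taken from its own window. It is also the 1 transcript behind the share of 0.00338%. No MALAT1 transcript held all 3 there, since the MALAT1 window ends upstream of the annotated end. The shares are a description and test nothing. The matrix sums all reads of a gene, so reads of the short and long NEAT1 forms, or of the tRNA-like RNA, are not separated.

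On hg38, MALAT1 lies at chr11:65497688-65506516 and NEAT1 at chr11:65422774-65445540, both on the plus strand. KCNQ1OT1 lies at chr11:2608328-2699994 on the minus strand, HOTAIR at chr12:53962308-53974956 on the minus strand and AIRN at chr6:160003291-160007664 on the minus strand. TUG1 lies at chr22:30969245-30979395 and PVT1 at chr8:127794533-128101253, both on the plus strand. Exons cover the whole span of MALAT1, NEAT1, KCNQ1OT1, AIRN and TUG1, whereas HOTAIR has 8 exon blocks adding up to 2602 bases and PVT1 has 21 adding up to 5493 bases. The longest transcripts have 40.3% GC in MALAT1, 43.1% in TUG1, 43.7% in KCNQ1OT1, 44.1% in NEAT1, 48.6% in HOTAIR, 51.8% in AIRN and 52.2% in PVT1, against a median of 46.4% over 11990 long noncoding genes. The pentamer AGCCC, a short string reported in nuclear retention elements, occurs 0.92 times per kb in MALAT1, 0.97 in NEAT1, 1.18 in PVT1, 1.34 in TUG1, 1.47 in KCNQ1OT1, 2.07 in HOTAIR and 2.51 in AIRN on the transcript strand, against a median of 1.18. A match of these letters is a description and not a site.

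Reads recovered from the deposited values added up to 19.516 to 34.824 M reads in the 14 inside libraries and to 11.341 to 16.262 M in the 12 outside libraries. Sequencing depth and the side of the membrane are therefore confounded and cannot be told apart. The second CD28 labeled library had 3159 genes at 0 reads and the second PDGFR control library 3031, against 1542 or fewer in the other 24 libraries. The genes listed as HEK293T markers had a row in 7 of 8 cases and summed to 77.9 to 155 FPKM, a level corrected for gene length and library size. The rows present for blood markers (3 of 5) summed to 3.42 to 7.16 FPKM and those for fibroblast markers (3 of 4) to 4.78 to 10.4 FPKM, and the 2 hepatocyte and 2 endothelial markers had no row.

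Nuclear RNA was read in every library, in controls as in labeled samples. The 7 RNAs together took 0.254% to 1.19% of the recovered reads of a library, with a mean of 0.658% ± 0.223 (SD, n = 26). By construct the share was 0.437% ± 0.104 (SD, n = 4) in Lyn11 labeled and 0.5% ± 0.185 (SD, n = 4) in Lyn11 control libraries. In Lck it was 0.793% ± 0.00529 (SD, n = 3) labeled and 0.757% ± 0.0427 (SD, n = 3) control. In CD28 it was 0.436% ± 0.0908 (SD, n = 3) labeled and 0.62% ± 0.135 (SD, n = 3) control. In PDGFR it was 0.862% ± 0.0821 (SD, n = 3) labeled and 0.986% ± 0.177 (SD, n = 3) control. Labeled and control libraries overlapped in this share in all 4 constructs. The group means of Lck and PDGFR, labeled and control, were above those of Lyn11 and CD28, while labeled Lyn11 and labeled CD28 were alike. MALAT1 gave 40.5% to 74.5% of the reads of the 7 RNAs.

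**Figure D1:**
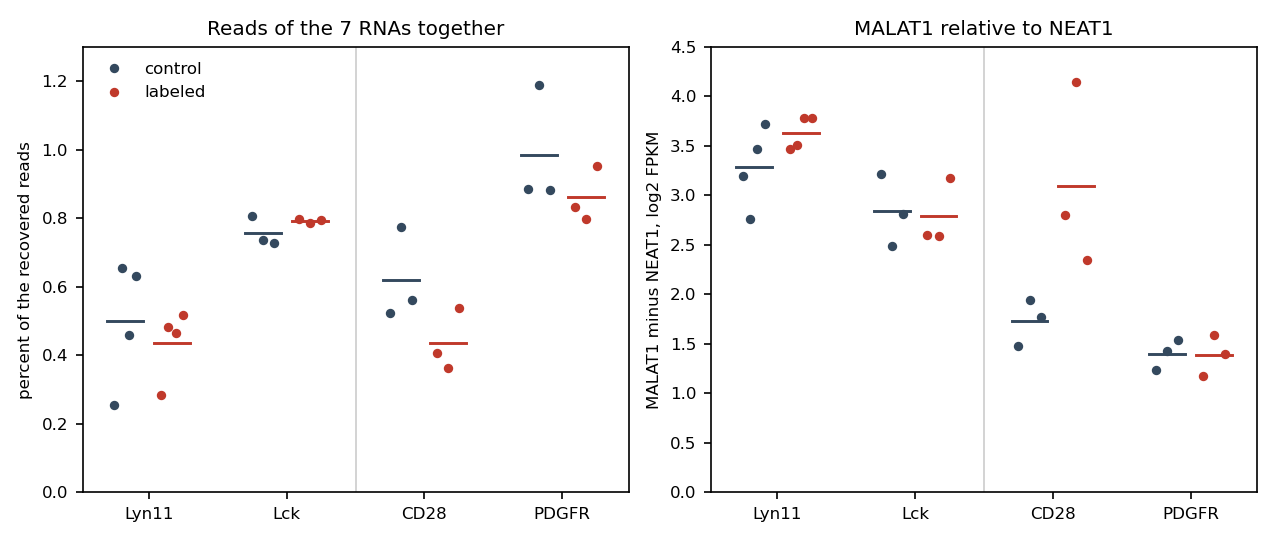
Left, the percent of recovered reads that fell on the 7 RNAs together, and right, MALAT1 minus NEAT1 in log2 FPKM, each by construct; points are libraries, bars are group means, and the grey line separates inside (Lyn11, Lck) from outside (CD28, PDGFR) constructs. The share runs from 0.254% to 1.19%, with labeled and control points overlapping in each construct, and MALAT1 stands furthest above NEAT1 in the second CD28 labeled library, at 4.15.

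On the length-corrected scale, the RNAs kept a nearly fixed order of level. Over the 26 libraries MALAT1 had a median of 8.65 log2 FPKM (range 7.64 to 9.28), or 401 FPKM. NEAT1 followed at 6.16 (4.21 to 7.62) and TUG1 at 4.58 (3.83 to 5.14). MALAT1 was above NEAT1 and TUG1 above KCNQ1OT1 in 26 of 26 libraries, and NEAT1 was above TUG1 in 22 of 26. KCNQ1OT1 had a median log2 FPKM of 2.8 (1.86 to 3.17) and PVT1 of 2.68 (1.97 to 3.28). These neighbours in the order did not differ beyond their spread, with a difference of 0.04 ± 0.28 log2 (SD, n = 26). HOTAIR was lower at 1.18 (0.21 to 1.75), and AIRN was lowest at -0.83 (-1.95 to 0.92) and was below HOTAIR in 26 of 26 libraries. The depth behind these values differed widely: MALAT1 had 30137 to 120873 reads in a library, HOTAIR 42 to 187 and AIRN 16 to 116.

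**Figure D2:**
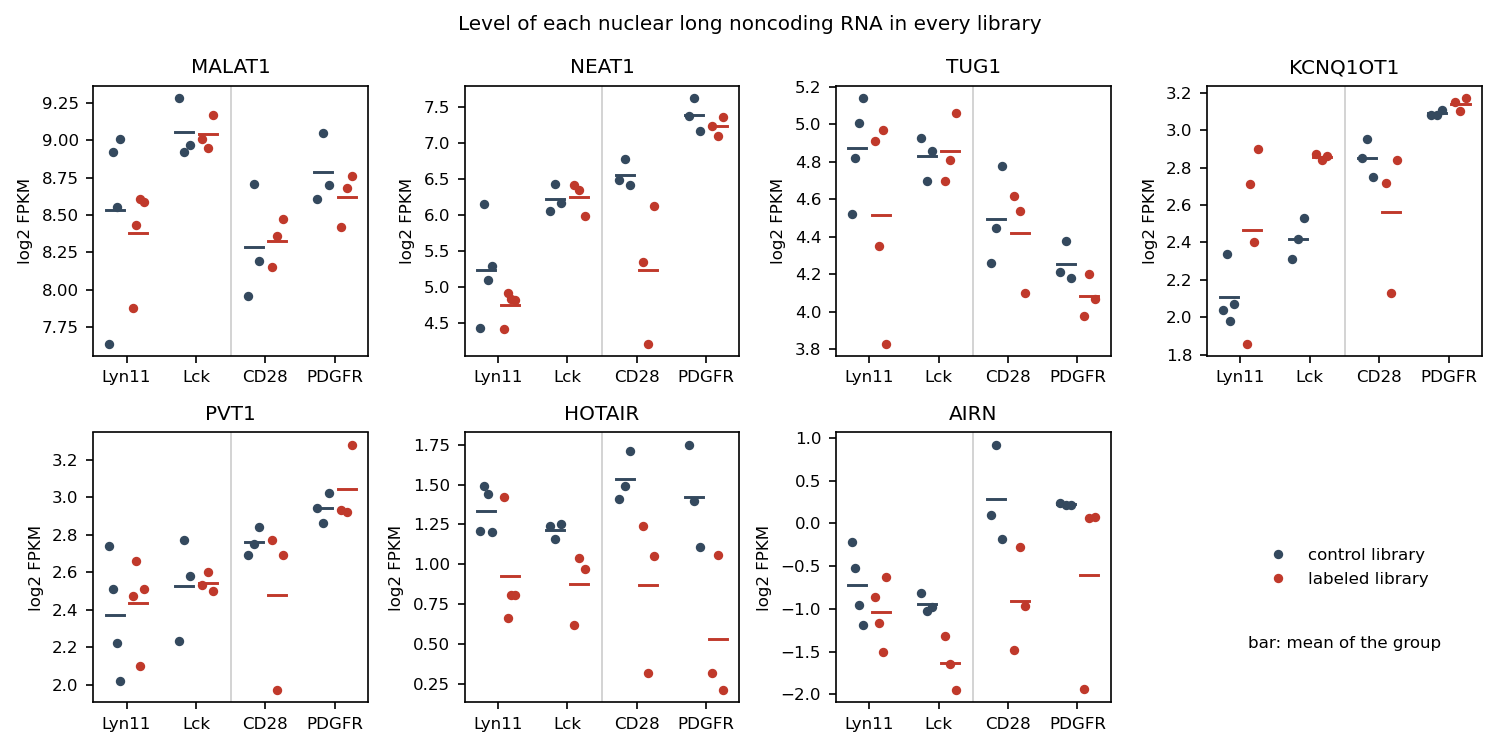
The log2 FPKM of each RNA in every library, by construct, with control libraries in dark blue and labeled libraries in red; bars are group means and the grey line separates inside from outside constructs, and each panel has its own axis. NEAT1 and KCNQ1OT1 are highest in PDGFR, at group means of 7.39 and 3.14, and HOTAIR and AIRN show labeled points below control points in Lck, CD28 and PDGFR.

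MALAT1, the most abundant of the set, overlapped between labeled and control libraries in every construct. In Lyn11 it stood at 7.88, 8.43, 8.61 and 8.59 log2 FPKM in the labeled libraries and at 7.64, 8.92, 8.55 and 9.01 in the controls. In Lck it was 9.01, 8.95 and 9.17 labeled and 9.28, 8.92 and 8.97 control. The groups overlapped in both, and the first Lyn11 library of each kind was the low one. In CD28 it was 8.15, 8.36 and 8.47 labeled and 7.96, 8.71 and 8.19 control. In PDGFR it was 8.42, 8.68 and 8.76 labeled and 8.61, 9.05 and 8.7 control. Both outside constructs overlapped as well. Averaged over the 4 constructs, the labeled minus control difference of MALAT1 was -0.07 ± 0.13 log2 (SE; 95% interval -0.35 to 0.2; limma, adjusted p = 0.841). Within PDGFR alone the interval runs from -0.75 to 0.41.

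NEAT1 varied most between constructs. Its labeled libraries stood at 4.41, 4.92, 4.83 and 4.81 log2 FPKM in Lyn11, against 4.43, 6.15, 5.09 and 5.29 in the controls. In Lck it was 6.41, 6.35 and 5.99 labeled and 6.06, 6.43 and 6.16 control. Both constructs overlapped, and the second Lyn11 control was the high one of its group. In CD28 it was 5.35, 4.21 and 6.12 labeled and 6.48, 6.77 and 6.41 control, and in PDGFR it was 7.24, 7.09 and 7.36 labeled and 7.37, 7.62 and 7.17 control. All CD28 labeled libraries were thus below all CD28 controls, with the second labeled library lowest, while PDGFR overlapped. The CD28 difference in NEAT1 was -1.33 ± 0.36 log2 (SE; limma, unadjusted p = 0.00132, adjusted p = 0.103) and did not pass the threshold of adjusted p under 0.05. It was -0.82 ± 0.32 (adjusted p = 0.391) without the second CD28 labeled and second PDGFR control libraries, and -1.78 (adjusted p = 0.023) without the third CD28 labeled library. The average over constructs was -0.49 ± 0.17 log2 (SE; adjusted p = 0.1) for NEAT1, and it was -0.33 ± 0.15 (adjusted p = 0.208) without those first-named libraries. The NEAT1 average passed with voom on the recovered reads (-0.49, adjusted p = 0.0412), without the first Lyn11 control (-0.56, adjusted p = 0.0362) and without the third CD28 labeled library (-0.6, adjusted p = 0.0196).

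MALAT1 and NEAT1 lie next to each other on chromosome 11, yet their ratio was not constant. In FPKM, MALAT1 was 6.78 to 13.8 times NEAT1 in Lyn11 and 5.61 to 9.34 times in Lck. It was 2.27 to 3.02 times in PDGFR and 2.79 to 3.83 times in CD28 controls. In the CD28 labeled libraries it was 5.08 to 17.7 times, above all CD28 controls.

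KCNQ1OT1 had the highest labeled minus control differences of the 7 in the inside constructs. In Lyn11 it was 1.86, 2.71, 2.4 and 2.9 log2 FPKM labeled and 2.04, 2.34, 1.98 and 2.07 control. In Lck it was 2.87, 2.84 and 2.86 labeled and 2.31, 2.42 and 2.53 control. The Lyn11 groups overlapped through the first labeled library, and in Lck all labeled libraries were above all controls. In CD28 it was 2.72, 2.13 and 2.84 labeled and 2.85, 2.95 and 2.75 control, and in PDGFR it was 3.15, 3.1 and 3.17 labeled and 3.08, 3.08 and 3.11 control. Both outside constructs overlapped. The KCNQ1OT1 difference was 0.36 ± 0.17 log2 in Lyn11 (SE; limma, adjusted p = 0.868) and 0.44 ± 0.2 in Lck (adjusted p = 0.714), and neither passed. With libraries weighted by construct, which gives Lck a weight of 2.65, the Lck difference of KCNQ1OT1 was 0.44 with an adjusted p of 0.0217. That weighting called 1831 of the 22284 genes tested in Lck, against 177 in the design as fitted. The inside minus outside contrast of the labeling differences was 0.52 ± 0.19 log2 (SE; unadjusted p = 0.0136, adjusted p = 0.699) and did not pass either.

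HOTAIR was lower in labeled than in control libraries. In Lyn11 it stood at 1.42, 0.66, 0.81 and 0.81 log2 FPKM labeled, from 100 to 161 reads, and at 1.21, 1.49, 1.44 and 1.2 control, from 140 to 187 reads. In Lck it was 0.62, 1.04 and 0.97 labeled and 1.24, 1.16 and 1.25 control. The first Lyn11 labeled library overlapped its controls, and in Lck all labeled libraries were below all controls. In CD28 it was 1.24, 0.32 and 1.05 labeled and 1.41, 1.49 and 1.71 control. In PDGFR it was 0.32, 1.06 and 0.21 labeled and 1.75, 1.4 and 1.11 control. All labeled libraries were below all controls in both outside constructs, with the second CD28 labeled library lowest of its group. The averaged difference of HOTAIR was -0.58 ± 0.13 log2 (SE; 95% interval -0.85 to -0.31; limma, adjusted p = 0.0068), a fold of 0.67, and it was -0.51 ± 0.12 (adjusted p = 0.0122) without the second CD28 labeled and second PDGFR control libraries. Singly, the difference was -0.41 in Lyn11, -0.34 in Lck, -0.67 in CD28 and -0.89 in PDGFR, and none passed (adjusted p of 1, 1, 0.272 and 0.091). The PDGFR difference of HOTAIR passed without the second CD28 labeled library (adjusted p = 0.0478) or without the second PDGFR labeled library (-1.16, adjusted p = 0.0334).

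AIRN had few reads, and its values are the least precise of the set. In Lyn11 it was -0.86, -1.16, -1.5 and -0.63 log2 FPKM labeled, from 37 to 65 reads, and -0.22, -0.52, -0.95 and -1.19 control, from 44 to 116 reads. In Lck it was -1.32, -1.64 and -1.95 labeled and -0.81, -1.02 and -0.98 control. Lyn11 overlapped, and in Lck all labeled libraries were below all controls. In CD28 it was -1.48, -0.28 and -0.97 labeled and 0.1, 0.92 and -0.18 control. In PDGFR it was -1.94, 0.06 and 0.08 labeled and 0.24, 0.22 and 0.21 control. Both outside constructs had all labeled libraries below all controls. The gap was narrow in CD28, between the second labeled library at -0.28 and the third control at -0.18. The gap in PDGFR was narrow as well, apart from the first labeled library. The averaged difference of AIRN was -0.76 ± 0.23 log2 (SE; limma, adjusted p = 0.0485), just inside the threshold. It passed in 12 of 34 alternatives, with adjusted p between 0.0218 and 0.0936, and the call was lost on leaving out any 1 of 20 libraries. The exceptions were the fourth Lyn11 library of each kind, the second CD28 labeled library, the third CD28 control, and the second and the third PDGFR labeled library. AIRN exceeded the filter's level in 0 of 14 inside libraries and 7 of 12 outside libraries. Among labeled libraries only the second and the third PDGFR library exceeded it, short of the 3 that the filter asks for. AIRN thus entered the test through controls, where it was higher, and its low call is limited by that choice.

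TUG1 and PVT1 also overlapped between labeled and control libraries. TUG1 lay between 3.83 and 5.14 log2 FPKM, with overlap in all 4 constructs and an average difference of -0.15 ± 0.11 (SE; limma, adjusted p = 0.54). The fourth Lyn11 labeled library, at 3.83, was the lowest of all. PVT1 lay between 1.97 and 3.28, again with overlap in all 4 constructs, and its average difference was -0.03 ± 0.1 (adjusted p = 0.934). The second CD28 labeled library, at 1.97, was its lowest. The sign of the PVT1 average turned with the scaling, to 0.02 with median centring.

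**Figure D3:**
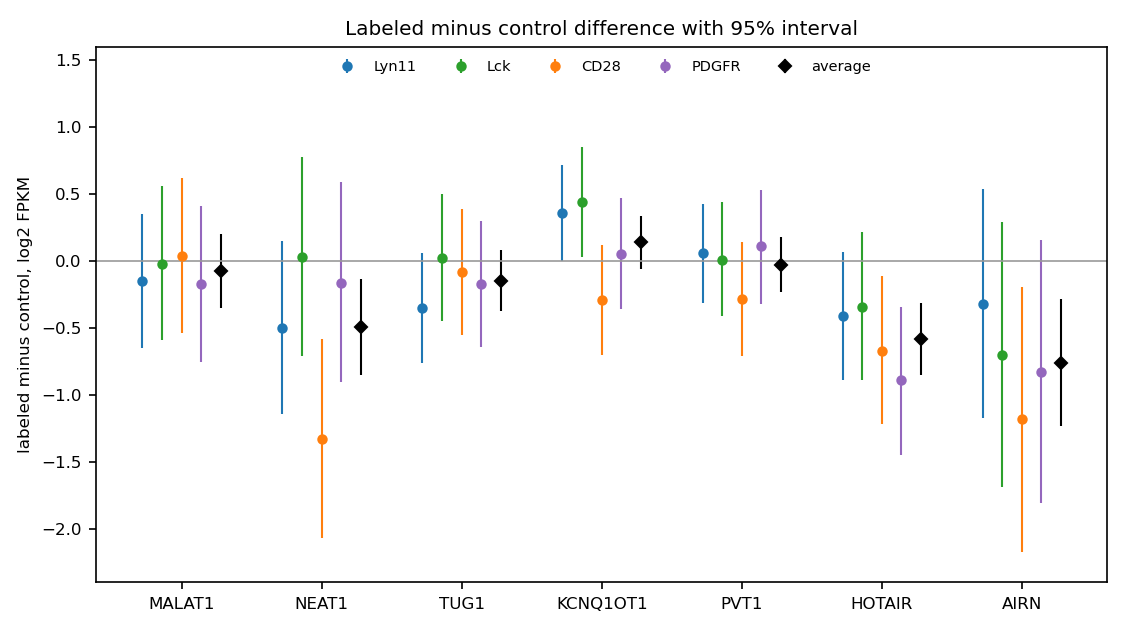
Labeled minus control difference of each RNA in log2 FPKM for the 4 constructs (circles) and their average (black diamonds), with 95% intervals from limma. The average of HOTAIR, at -0.58, and that of AIRN, at -0.76, passed the adjusted threshold, and the intervals of MALAT1, TUG1 and PVT1 include 0 in every construct.

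Counted over the 7 RNAs, 0 passed in Lyn11, 0 in Lck, 0 in CD28 and 0 in PDGFR by limma, where 0.579%, 0.794%, 0.476% and 2.13% of all 22284 genes tested passed in either direction. At an unadjusted p under 0.05 the counts were 1, 1, 3 and 1 of the 7, where 1260, 1427, 3017 and 3131 of the 22284 genes were under it. In the average over constructs 2 passed, HOTAIR and AIRN, both lower, where 7.37% of all genes passed in either direction and 3.08% as lower. AIRN entered the test only with the help of controls, where it was higher, so HOTAIR is the 1 call free of that limit. All labeled libraries were below all controls for 0 members in Lyn11 (1.91% of all genes), 2 in Lck (13.2%), 3 in CD28 (6.59%) and 2 in PDGFR (6.39%). AIRN was 1 of them in Lck, CD28 and PDGFR. All labeled libraries were above all controls for KCNQ1OT1 in Lck (12.9% of all genes), and for 0 members in Lyn11 (3.4%), CD28 (7.44%) and PDGFR (7.53%). HOTAIR and AIRN had a difference below 0 in all 4 constructs, as did 13.5% of all genes. The median average difference of the 7 was -0.15 log2, against -0.01 for all genes. For the inside minus outside contrast of labeling differences 0 of 7 passed, where 0.00449% of all genes passed. In that contrast 1 of 7 had an unadjusted p under 0.05, as did 1453 of the 22284 genes.

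The controls also differed between inside and outside constructs. Each side holds only 2 constructs, and the test takes its error from libraries within a construct. A p-value between the controls of the sides, here and for the lists below, therefore cannot separate the side from differences between the lines. The lines of 1 side also differed from each other in the group means that follow. NEAT1 was lower in inside than outside controls by -1.24 ± 0.25 log2 (SE; limma, adjusted p = 0.00302), a fold of 0.422, and KCNQ1OT1 by -0.71 ± 0.14 (adjusted p = 0.00256). The libraries show it as group means of NEAT1 of 5.24 ± 0.71 (SD, n = 4) in Lyn11, 6.22 ± 0.19 (SD, n = 3) in Lck, 6.56 ± 0.19 (SD, n = 3) in CD28 and 7.39 ± 0.23 (SD, n = 3) in PDGFR controls. KCNQ1OT1 controls averaged 2.11 ± 0.16 (SD, n = 4), 2.42 ± 0.11 (SD, n = 3), 2.85 ± 0.1 (SD, n = 3) and 3.09 ± 0.02 (SD, n = 3) in the same order, with every inside control below every outside control. For NEAT1 the second Lck control, at 6.43, overlapped the third CD28 control, at 6.41. AIRN was also lower, by -1.08 ± 0.33 (adjusted p = 0.0364), but it entered the test only through outside libraries, and the call was lost on leaving out any 1 of 10 control libraries, all but the first and the second Lyn11 control and the third CD28 control. Its adjusted p was highest, at 0.108, without the second CD28 control. Leaving AIRN aside, 2 of 6 passed, NEAT1 and KCNQ1OT1, both lower, where 11.2% of all genes passed in either direction and 3.84% as lower.

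TUG1 went the other way, with an inside minus outside control difference of 0.47 ± 0.16 log2 (SE; limma, adjusted p = 0.0533), which did not pass, though it did in 12 of 35 alternatives, among them median centring (0.56, adjusted p = 0.0296). The TUG1 controls ran from 4.52 to 5.14 log2 FPKM inside and from 4.18 to 4.78 outside, with overlap. PVT1 was at -0.4 ± 0.14 (adjusted p = 0.0698), and passed without the second CD28 labeled library (adjusted p = 0.0328) or the first Lyn11 control (adjusted p = 0.0324). MALAT1 was at 0.26 ± 0.19 (adjusted p = 0.416) and HOTAIR at -0.2 ± 0.18 (adjusted p = 0.514). The part of depth and of the number of genes at 0 reads in these differences was not tested.

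Several members share their locus with other rows, and where strand is not given in the sources used here, reads of a gene and its antisense partner cannot be told apart. IGF2R, the receptor gene across the strand from AIRN, had 5017 to 17577 reads a library against 16 to 116 for AIRN, and its average difference was 0.13 ± 0.05 log2 (limma, adjusted p = 0.134). AIRN shares no exon base with IGF2R exons, and lies in its introns. KCNQ1, the potassium channel gene across from KCNQ1OT1, had 30 to 297 reads, shares 121 exon bases with it and differed by -0.28 ± 0.22 (adjusted p = 0.579). HOXC11, a homeobox gene across from HOTAIR, shares no exon base with it and differed by -0.34 ± 0.13 (adjusted p = 0.13). Its difference was -0.32 in Lyn11, -0.25 in Lck, -0.18 in CD28 and -0.61 in PDGFR, and none passed. Over the 26 libraries HOTAIR and HOXC11 had a Pearson r of 0.62, against 0.31 for KCNQ1OT1 and KCNQ1 and -0.13 for AIRN and IGF2R. The source of these correlations was not tested. AC012531.3, a small RNA row within the HOTAIR span on the other strand, had 0 reads in all 3 CD28 labeled libraries and 6 to 7 in the CD28 controls, and 0 to 18 over all libraries, and it was called lower in the average (adjusted p = 0.00583). MIR1207, a microRNA hosted by PVT1, was higher in labeled libraries on average by 0.66 ± 0.2 log2 (adjusted p = 0.0488) from 5 to 39 reads a library, and passed in 10 of 35 alternatives.

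The pathway genes around these RNAs give a comparison within the same libraries. Of the list of other nuclear long noncoding RNAs, 10 of 20 could be tested, and 0 passed in the average in either direction by limma, with a median of -0.08 log2 against -0.01 for all genes. In the controls, where 11.2% of all genes passed, 3 of the 10 were lower inside than outside: MIAT, at -0.78 ± 0.24 (adjusted p = 0.0369), FTX, at -0.57 ± 0.14 (adjusted p = 0.0154), and FIRRE, at -0.25 ± 0.07 (adjusted p = 0.0248). These act on splicing, X inactivation and nuclear architecture, and the count was 0 without the second CD28 control and 1 without the second Lck, the third Lck or the second PDGFR control, or with median centring. MIAT lay mostly below the filter's level of 0 (median -0.87, highest 0.24 log2 FPKM) and passed in 22 of 34 alternatives. As with AIRN, its entry into the test may rest on the libraries where it is high. Of 12 tested cytosolic long noncoding RNAs, 1 rose in the average and 0 fell, with a median of 0.1, where 7.37% of all genes passed. It was ZFAS1, a host of small nucleolar RNAs, at 0.51 ± 0.07 log2 (adjusted p = 4.02e-05), and in the controls SNHG5, another such host, was the 1 that passed, higher inside by 0.64 ± 0.15 (adjusted p = 0.0081). That count rose to 5 with median centring and 4 without the first Lyn11 control.

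Some mRNAs for proteins that work with MALAT1 and NEAT1 passed the test in the average, where 7.37% of all genes passed. Of 16 paraspeckle protein genes 2 rose and 0 fell in the average, with a median of 0.06 log2, among them SFPQ, a core paraspeckle protein, at 0.36 ± 0.09 (limma, adjusted p = 0.0126). The count was 0 with quantile normalization, 1 with construct weights, and 1 without the third Lyn11 control, the second Lck labeled or the second Lck control library. In the controls 4 were lower and 1 higher inside than outside, where 11.2% of all genes passed, and 3 passed in all without the first or the third Lck control. Among them HNRNPM was lower by -0.76 ± 0.13 (adjusted p = 0.00102), SFPQ by -0.59 ± 0.12 (adjusted p = 0.00515) and RBM14 by -0.48 ± 0.14 (adjusted p = 0.031), and NONO, the partner of SFPQ, was higher by 0.37 ± 0.11 (adjusted p = 0.0295). The calls of RBM14 and NONO passed in 26 and 28 of 35 alternatives. Of 13 genes for MALAT1 processing and nuclear speckles 1 rose and 0 fell, with a median of 0.06. It was SRSF3, a splicing factor, at 0.41 ± 0.09 (adjusted p = 0.00822).

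Of 10 tested genes for Polycomb and imprinting partners and 13 tested neighbours or regulated genes, 0 passed in the average in either direction by limma. Of all genes 7.37% passed there. Their medians were -0.02 and -0.09 log2. EZH2, the Polycomb methyltransferase, was at -0.02 ± 0.06 (adjusted p = 0.931). MYC, next to PVT1, was at -0.1 ± 0.06 (adjusted p = 0.379) in the average and was higher in inside than outside controls, at 0.3 ± 0.08 (adjusted p = 0.0216). It was the 1 of these 13 genes that passed between controls, where 11.2% of all genes passed.

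Across the 26 libraries some members varied together. NEAT1 and KCNQ1OT1 had a Pearson r of 0.78, KCNQ1OT1 and PVT1 0.73, and NEAT1 and PVT1 0.71, while TUG1 ran against KCNQ1OT1 (-0.68) and PVT1 (-0.64). MALAT1 and NEAT1 had 0.42. These points share libraries, depth and constructs, so the correlations describe this set of libraries. Among 15075 genes with a mean log2 FPKM of at least 1, the pattern most like TUG1 was that of SEC24B (0.968), followed by MED14 (0.963). For MALAT1 it was GABPB1-AS1 (0.849), MATR3 (0.82) and IGIP (0.799), for NEAT1 WDR27 (0.897), AC068587.4 (0.894) and LINC00893 (0.884), and for KCNQ1OT1 AC104031.1 (0.896), NUTM2G (0.875) and COL7A1 (0.858). For PVT1 it was MICAL3 (0.909), CEP164 (0.891) and MIR221 (0.874). For AIRN it was SNHG20 (0.89), ACTR3B (0.817) and AC112907.2 (0.815), and HOTAIR had the weakest, RNU7-128P (0.748), PSMC3IP (0.74) and UBE2F (0.739).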

How the data were processed

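Biotin-tagged RNA of 26 HEK293T libraries was measured. The authors deposited log2 FPKM values for 25745 genes; the submitters' processing notes name HISAT2 2.1.0, edgeR and hg38. Strandedness is not given in the sources used here. Each value is a log2 of reads plus a prior count averaging 1 read, scaled to gene length and library size, so low values are pulled together. Whole reads were recovered from the values, within 0.05 read in at least 99.975% of values of 3956 genes that share a floor. Gene lengths came from that floor for those genes and from GENCODE 29 exons for most others. For 1228 genes, MALAT1 (8755 bases) and TUG1 (6793 bases) among them, the length was the 1 that gave whole reads. Totals were 11.341 to 34.824 M. Genes with log2 above 0 in at least 3 libraries (22284) were fitted with limma 3.58.1 in R 4.3.3, intensity trend, 8 group means and 18 residual degrees of freedom. Tests are two-sided with Benjamini-Hochberg adjustment, called under 0.05. The script was tested on simulated data. Named genes are the members, rows overlapping them, list genes called in the average and the 3 most alike genes per member; list genes called between controls were named after their values were seen, and some genes under these rules are not reported here. Members and lists were chosen with earlier results of these data known. Alternatives were other filters, pseudocount, scaling, weights, blocks, voom and leaving out libraries.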

Additional observations from a re-analysis of the deposited data

How the results depend on the processing

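The low calls of HOTAIR (average) and of NEAT1 and KCNQ1OT1 (inside minus outside controls) held under all 35 alternatives. Between controls, leaving out a labeled library cannot change the difference and alters only the estimate of its error, so those alternatives test little. The number of members called in the average was 1 with the stricter filter, which drops AIRN, 1 with median centring, 1 with the replicate block and 3 with voom, where NEAT1 passed too, and 1 to 2 on leaving out 1 library. It was 1 in Lck with construct weights, a setting that called 1831 of all 22284 genes in Lck. The number was 0 to 1 in CD28 and in PDGFR on leaving out 1 library, and 2 to 5 between controls, 5 without the first Lyn11 control. Over all genes, replicate numbers did not pair libraries (r of -0.288 to 0.166 between same-numbered libraries), and the replicate block lost AIRN (adjusted p = 0.076). For MALAT1 the block lowered the SE from 0.24 to 0.17 in Lyn11 and from 0.13 to 0.09 in the average. The MALAT1 average stayed at -0.07 and did not pass (limma, adjusted p = 0.754).

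Some differences turned sign, none of which passed the test. With quantile normalization MALAT1 in CD28 was -0.24, PVT1 in the average 0.01, and the inside minus outside contrast 0.18 for MALAT1, -0.19 for AIRN (0.5 ± 0.46, SE, in the design as fitted) and 0.08 for TUG1. With median centring TUG1 in CD28 was 0.04 and PVT1 in the average 0.02, which was 0.03 without the second CD28 labeled and second PDGFR control libraries together, an alternative chosen after seeing the data. Leaving out 1 library gave MALAT1 -0.45 to 0.02 in Lyn11, -0.08 to 0.09 in Lck and -0.12 to 0.25 in CD28, NEAT1 -0.05 to 0.16 in Lck, TUG1 -0.08 to 0.1 in Lck and -0.2 to 0.08 in CD28, and PVT1 -0.06 to 0.18 in Lyn11, -0.13 to 0.13 in Lck, -0.01 to 0.17 in PDGFR and -0.06 to 0.04 in the average. The inside minus outside contrast was then -0.17 to 0.06 for MALAT1, -0.12 to 0.08 for TUG1 and 0 to 0.2 for PVT1. The cause was not tested.

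Calls over all genes ranged from 60 to 256 in Lyn11 (129), 64 to 1831 in Lck (177), 0 to 464 in CD28 (106), 15 to 727 in PDGFR (475), 1049 to 2061 in the average (1642), 0 to 8 for the contrast (1) and 1492 to 3580 between controls (2490). CD28 fitted on its own libraries gave 0 by limma, with 1525 at an unadjusted p under 0.05. The share called higher was 95.5% in Lck against 83.7% with quantile normalization, 36.8% in CD28 against 51.9% with median centring, and 65.7% between controls against 80.1% with median centring, which moved the median of all genes from 0.025 to 0.148 in CD28. Own libraries alone were not run for the inside minus outside contrast, which uses every library. AIRN rests on 16 to 116 reads a library and HOTAIR on 42 to 187.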
